A study of Mus musculus with 6 samples.

Results

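The genes described here encode the Gadd45 stress proteins (Gadd45a, Gadd45b and Gadd45g), the CDK inhibitors Cdkn1a (p21) and Cdkn1b (p27), the transcription factor p53 (Trp53) with its inhibitor Mdm2, and the antiproliferative proteins Btg1 and Btg2. They were chosen by name from these families, with the group differences of Gadd45a and Gadd45b on the same arrays already known, so their tests below describe the fit over all genes and are not independent support. Of the 9 genes, 8 had at least 1 probe set annotated to them alone, 17 probe sets in all out of 45101 on the array. Trp53 was not analysed here. Each gene was tested by its brightest probe set, and 7 of the 8 passed the limit for dim genes, among 10916 tested of 18193 genes on the array. The exception was Gadd45g.

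Expression was measured on 6 arrays of mouse regulatory T cells (Tregs), a T cell class that holds other immune cells in check. The cells were cultured for 18 h. The cells came from spleen and lymph nodes of C57Bl/6 mice aged 8 to 11 weeks, and were sorted as CD4+CD25+FoxP3+. Every group carried FoxP3GFP, a green fluorescent label tied to the Foxp3 gene. WT vehicle denotes A2AR+/+FoxP3GFP cells with DMSO, and KO vehicle denotes A2AR-/-FoxP3GFP cells, which lack the adenosine 2A receptor, with DMSO. WT ATL1222 denotes A2AR+/+FoxP3GFP cells with 10 nM of ATL1222, named as a selective agonist of that receptor. Each group had 2 arrays, called biological replicates in the labels, which do not say whether animals were pooled or whether the deletion is limited to a cell type. P-values therefore measure only the spread between these arrays, moderated toward that of other genes of like mean signal. The number of arrays limits the precision.

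Gadd45 proteins are small partners of kinases and of the replication clamp PCNA. They are induced by stress and by cytokines, and in T cells members of the family act on p38 or JNK signalling. Cdkn1a and Cdkn1b restrain division by binding cyclin-dependent kinases. After DNA damage p53 switches on Cdkn1a, Mdm2, Gadd45a and Btg2, and the Mdm2 protein in turn marks p53 for degradation. Btg1 and Btg2 recruit the CCR4-NOT deadenylase complex to messenger RNA. This receptor raises cAMP, which activates CREB, a transcription factor that binds the cAMP response element (CRE).

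Promoters of 4 genes are shown, Gadd45a and Gadd45b because they carried the group differences, and Btg2 and Cdkn1a because their windows held the full CRE and the p53 element. Each sequence is the 250 bases before an annotated start, 5′ to 3′ on the gene's strand, from RefSeq on build GRCm38.p6, and capitals mark motif matches. The motifs, searched on both strands, were the full CRE (TGACGTCA), its half-site (TGACG, which the full CRE contains), the p53 half-site, and a p53 element of 20 bases formed by a pair of adjoining half-sites with at most 1 mismatch. The windows were chr6:67037408-67037657 on the minus strand for Gadd45a and chr10:80929841-80930090 on the plus strand for Gadd45b. They were chr1:134079156-134079405 on the minus strand for Btg2 and, for the upstream of the annotated Cdkn1a starts, chr17:29090729-29090978 on the plus strand.
Gadd45a: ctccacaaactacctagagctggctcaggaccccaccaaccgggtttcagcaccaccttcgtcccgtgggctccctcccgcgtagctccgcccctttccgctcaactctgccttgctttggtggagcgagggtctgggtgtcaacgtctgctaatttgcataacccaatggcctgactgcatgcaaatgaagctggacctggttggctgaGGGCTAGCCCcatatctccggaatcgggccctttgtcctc
Gadd45b: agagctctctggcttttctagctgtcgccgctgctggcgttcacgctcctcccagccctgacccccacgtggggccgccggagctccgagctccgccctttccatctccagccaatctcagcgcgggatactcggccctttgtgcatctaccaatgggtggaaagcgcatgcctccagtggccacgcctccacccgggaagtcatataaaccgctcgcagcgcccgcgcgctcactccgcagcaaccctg
Btg2: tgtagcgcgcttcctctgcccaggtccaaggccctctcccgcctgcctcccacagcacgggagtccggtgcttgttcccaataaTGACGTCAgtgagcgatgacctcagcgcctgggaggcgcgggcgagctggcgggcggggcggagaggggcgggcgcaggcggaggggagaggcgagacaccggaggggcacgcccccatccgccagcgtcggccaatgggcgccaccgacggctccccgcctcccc
Cdkn1a: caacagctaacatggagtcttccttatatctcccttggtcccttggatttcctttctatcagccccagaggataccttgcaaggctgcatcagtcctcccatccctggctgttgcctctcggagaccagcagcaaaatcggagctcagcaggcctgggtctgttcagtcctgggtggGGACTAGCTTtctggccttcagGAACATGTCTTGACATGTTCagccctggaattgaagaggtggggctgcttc

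All 9 genes matched the promoter table by symbol, with 10 windows. The full CRE was found in 1 gene, Btg2, beginning 166 bases before the start, and in 1.55% of 32851 mouse promoter windows of this length. The CRE half-site was found in Btg1 and Btg2, and in 17.8% of all windows. The p53 half-site was found in Gadd45a, Cdkn1a, Mdm2 and Trp53, and in 7.13% of all windows. The p53 element was found in the upstream Cdkn1a window, beginning 51 bases before that start, and in 0.0761% of all windows. The Gadd45a and Gadd45b windows held neither form of the CRE as spelled here. A match describes letters in a window and not a bound site.

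Array signals are on a linear scale, and their mean after trimming 2% at each end was 249.9 on every array, with medians from 74.7 to 98.2. Across the genes tested, the correlation was 0.958 to 0.967 for arrays in the same group and 0.953 to 0.971 otherwise. Of 6 Treg markers, Ikzf2, Nrp1, Ctla4 and Tnfrsf18 had signals of at least 2921 on every array, and Il2ra, which encodes CD25, had 416 to 613. Tnfrsf18 was 7823 and 6331 with ATL1222, against 5124 and 3923 in WT vehicle, and Ctla4 was likewise higher on both agonist arrays. Nrp1 went the other way, at 6109 and 5319 with ATL1222 against 7836 and 6667 in WT vehicle. Il2ra was also lower on both agonist arrays, and Ikzf2 overlapped. By contrast Foxp3, the gene the sort was named for, had signals of 7.18 to 53.5, under the filter's limit of 71.2. In bulk samples, fewer cells of a type and less RNA per cell cannot be told apart.

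The first comparison, KO vehicle against WT vehicle, concerns what loss of the receptor changes in cells that received no agonist. Gadd45b stood lowest in the knockout, at 1.72-fold below WT vehicle by its brightest probe set, without passing the test over all genes. Of the 7 genes tested 0 passed the threshold of adjusted p under 0.05 (limma, Benjamini-Hochberg), and 1, Gadd45b, had an unadjusted p under 0.05. Of all genes tested 0.0275% passed and 3.89% had an unadjusted p under 0.05. The median of their log2 differences was 0.023, against 0.0048 for all genes. Both KO vehicle arrays lay below both WT vehicle arrays for 1 of the 7, Gadd45b, and for 13.7% of all genes tested. Both lay above for 1 of the 7, Mdm2, and for 15.9% of all genes tested.

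The second comparison, WT ATL1222 against WT vehicle, concerns what the agonist changes in wild-type cells. Gadd45a rose 2.24-fold with ATL1222, and the fold of Gadd45b was 0.997. Whether the 2 genes differ in response was not tested. Of the 7 genes 1 passed, Gadd45a, as did 0.211% of all genes tested. The median log2 difference of the 7 was 0.21, against -0.0079 for all genes. Both WT ATL1222 arrays lay above both WT vehicle arrays for 2 of the 7, Gadd45a and Mdm2, and for 14.5% of all genes tested. The third comparison, WT ATL1222 against KO vehicle, shares its arrays with the others, and its groups differ in both genotype and drug. There 2 of the 7 passed, Gadd45a and Gadd45b, both higher in WT ATL1222, as did 0.999% of all genes tested. Since these contrasts were known when the genes were chosen, nothing is read from the shares.

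**Figure D1:**
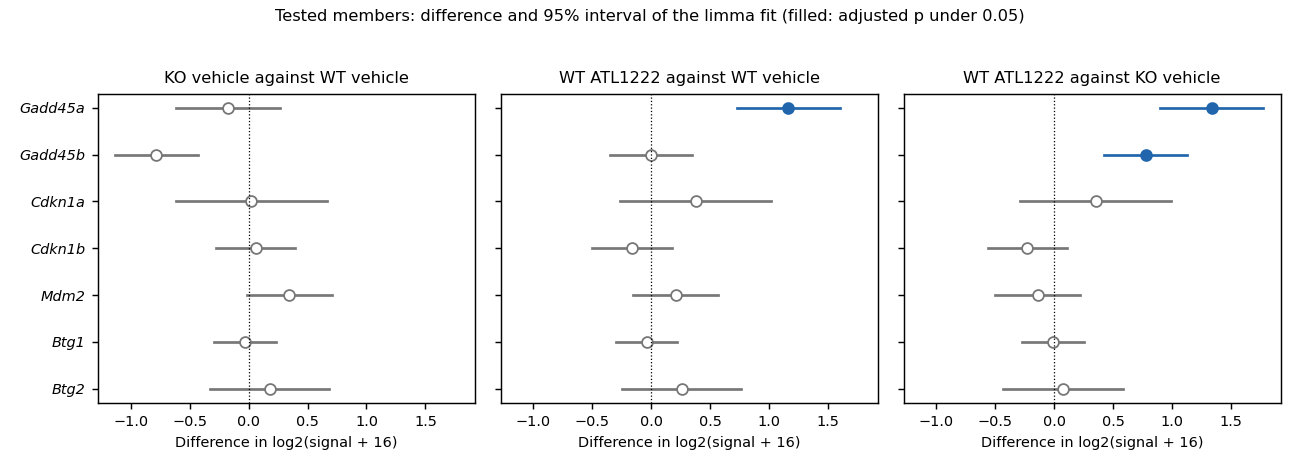
Difference in log2(signal + 16) for the 7 genes tested, in 3 comparisons, with points at the limma estimate, bars for the 95% interval and filled points for an adjusted p under 0.05. Gadd45a lies at 1.16 with ATL1222 against WT vehicle, whereas Gadd45b lies at -0.78 in KO vehicle against WT vehicle and at 0.00 with ATL1222.

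Gadd45a, a p53 target that also binds p38, had 1 probe set, 1449519_at. Its signals were 381 and 324 in WT vehicle, against 356 and 271 in KO vehicle and 850.2 and 766 with ATL1222. Both agonist arrays lay above the other 4, while the 2 vehicle groups overlapped. The mean was 353 ± 40.4 (SD, n = 2) in WT vehicle, against 313 ± 60.2 in KO vehicle and 808 ± 59.5 with ATL1222. With ATL1222 the log2 difference from WT vehicle was 1.16 ± 0.20 (SE, limma adjusted p = 0.0322), rank 19 of all genes by p. Against KO vehicle it was 1.33 ± 0.20 (limma adjusted p = 0.00405). In KO vehicle against WT vehicle it was -0.17 ± 0.20, with a 95% interval from -0.61 to 0.27 (limma adjusted p = 1.00).

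The call of Gadd45a against WT vehicle rests on the settings. Its difference was positive in each of 19 alternatives, from 1.05 to 1.27, but the limma adjusted p ranged from 0.00407 to 0.661 and missed the threshold in 9. Leaving out WT vehicle replicate 1 gave 0.0528 and leaving out its replicate 2 gave 0.248, and leaving out WT ATL1222 replicate 1 or 2 gave 0.356 or 0.130. It was 0.128 with every probe set tested separately, 0.105 with probe sets averaged, 0.0810 with no filter on dim genes 0.0504 after quantile normalization and 0.661 without the variance trend. In the agonist arrays the 4 B cell markers on the array summed to 4721 and 4807, against 6859 and 7948 in WT vehicle and 7363 and 7557 in KO vehicle. Of that sum Ighm gave 4198 to 7539, and Cd79a was at most 77.7 on any array. Ighm alone was lower on both agonist arrays than on both WT vehicle arrays. Cd79b was 259 and 224 with ATL1222, against 232 and 187 in WT vehicle. Ms4a1 was 221 and 243 with ATL1222, against 154 and 225, and Cd79a overlapped as well. The 5 markers of CD8 T and NK cells summed to 437 and 459 with ATL1222, against 384 and 388 in WT vehicle. Of these, Cd8b1 and Prf1 were higher and Cd8a lower on both agonist arrays than on both WT vehicle arrays, and the rest overlapped. Sums of the other cell type lists overlapped between ATL1222 and WT vehicle. The part of all these markers in the Gadd45a difference was not tested.

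Gadd45b, an inducible relative that in T cells also acts on p38 and JNK signalling, had 3 probe sets. The brightest, 1449773_s_at, gave 926 and 967 in WT vehicle, against 579 and 511 in KO vehicle and 958 and 929 with ATL1222. Both knockout arrays lay below the other 4, and the wild-type groups overlapped. The means were 946 ± 29.5 (SD, n = 2), 545.0 ± 48.4 and 944 ± 21.1 in that order. The log2 difference of KO vehicle from WT vehicle was -0.78 ± 0.16 (SE), with a 95% interval from -1.13 to -0.43 and a limma adjusted p = 0.547, rank 6 of all genes by p. For ATL1222 against WT vehicle it was -0.0043 ± 0.16, with an interval from -0.35 to 0.35. Against KO vehicle the agonist arrays were higher by 0.78 ± 0.16 (limma adjusted p = 0.0370).

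The other Gadd45b probe sets had smaller differences. The suffix s_at marks probes that can match more than 1 transcript, which the probe set 1450971_at does not carry. That probe set gave 783 and 733 in WT vehicle, against 589 and 561 in KO vehicle and 698 and 817 with ATL1222. Its KO vehicle arrays were again the lowest, with a log2 difference from WT vehicle of -0.39 ± 0.17 (SE, n = 2 arrays a group, limma adjusted p = 1.00 over 20967 probe sets). The dimmest, 1420197_at, gave 113 and 125, 100.2 and 68.1, and 82.9 and 175 in the same order of groups, with the knockout below WT vehicle and overlapping the agonist arrays. Its log2 difference in the knockout was -0.45 ± 0.41. With the probe sets averaged, Gadd45b lay at -0.54 in the knockout against WT vehicle, and at 0.54 for ATL1222 against KO vehicle, where the call was lost (limma adjusted p = 0.483).

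The call of Gadd45b between ATL1222 and KO vehicle was lost in 8 of 19 alternatives, with limma adjusted p from 0.00651 to 0.483 over all 19. That of Gadd45a in the same comparison was lost in 2, at 0.0638 without WT ATL1222 replicate 1 and 0.174 without the variance trend. For Gadd45b the limma adjusted p was 0.0911 with every probe set separate, 0.0511 with no filter and 0.319 without the variance trend. Again for Gadd45b, it was 0.0795 without KO vehicle replicate 1, 0.272 without KO vehicle replicate 2, 0.333 without WT ATL1222 replicate 1 and 0.177 without WT ATL1222 replicate 2. Against WT vehicle the knockout difference was negative in each of 19 alternatives, from -0.87 to -0.54, and passed in none of them (limma adjusted p from 0.0697 to 1.00). In KO vehicle the 5 dendritic cell markers on the array summed to 157 and 164, against 244 and 267 in WT vehicle. The 5 markers of CD8 T and NK cells summed to 456 and 654, against 384 and 388. Of the dendritic cell markers only H2-Aa separated these groups, at 34.9 and 59.4 in KO vehicle against 97.8 and 126.8 in WT vehicle. Of the CD8 T and NK cell markers only Cd8b1 did, with both KO vehicle arrays above both WT vehicle arrays. The other markers of both lists overlapped. Sums of the other cell type lists overlapped between these groups too, except the erythroid one. The dendritic cell and CD8 T and NK cell sums are of dim signals. Their part in the Gadd45b difference was not tested. Gadd45b, Mdm2 and Btg1 lie on chromosome 10, as does the deleted receptor's gene. Of 536 genes tested on that chromosome 0 passed in the knockout, where 0.0275% of all genes passed. By limma p, 1 of the 536 ranked above Gadd45b. These counts cover the whole chromosome without regard to distance from the deleted gene, so they say little about linkage to it. The part of that linkage in the Gadd45b difference was not tested.

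Gadd45g, the cytokine-induced member, had 1 probe set, 1453851_a_at, with signals of 49.3 and 84.5 in WT vehicle, against 65.0 and 6.96 in KO vehicle and 14.3 and 30.8 with ATL1222. All but 1 of these values lay below the limit for dim genes, and the gene was not tested in the main fit. With no filter on dim genes its log2 difference was -0.91 ± 0.66 (SE) in the knockout and -1.10 ± 0.66 with ATL1222, and neither passed. Both agonist arrays were below both WT vehicle arrays, and the 2 KO vehicle arrays spanned most of the gene's range.

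**Figure D2:**
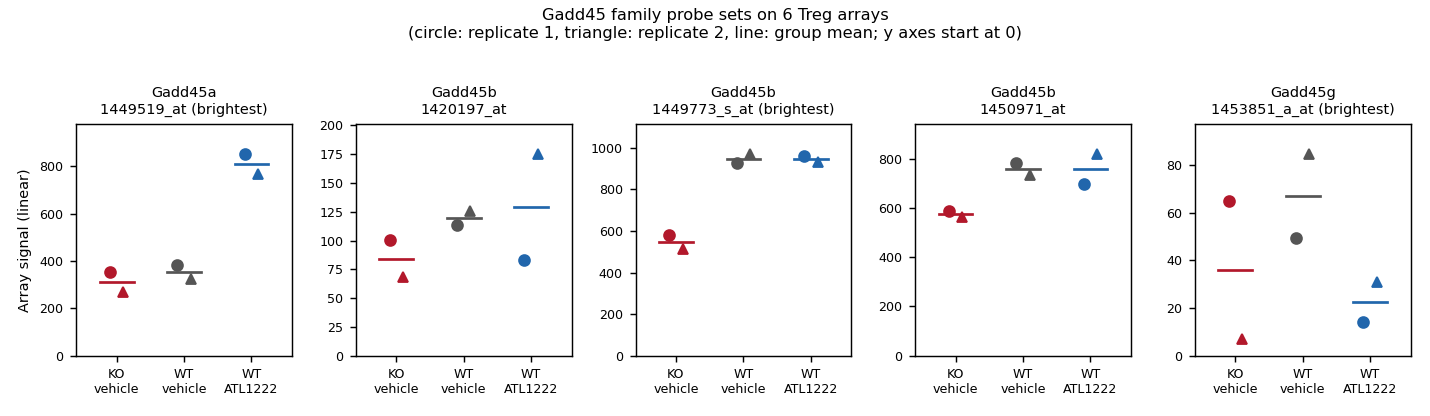
Array signal (linear axis from 0) of the 5 Gadd45 probe sets in KO vehicle, WT vehicle and WT ATL1222, with a circle for replicate 1, a triangle for replicate 2 and a line at the group mean. Gadd45a is high in WT ATL1222 alone among the groups, at 766 and 850.2, and Gadd45b 1449773_s_at is low in KO vehicle, at 511 and 579.

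Among the CDK inhibitors neither gene passed in any comparison. Cdkn1a, the p21 inhibitor that p53 induces, gave 191 and 193 in WT vehicle, against 167 and 229 in KO vehicle and 337 and 191 with ATL1222 by probe set 1424638_at. A single agonist array stood above the rest, and the groups overlapped. Its log2 difference with ATL1222 was 0.38 ± 0.30 (SE), with an interval from -0.26 to 1.02 (limma adjusted p = 0.998), and it was -0.0095 without WT ATL1222 replicate 1. In the knockout it was 0.023 ± 0.30, with an interval from -0.62 to 0.66. The second probe set, 1421679_a_at, gave 239 and 192, 206 and 140.4, and 286 and 202 in the same order of groups, and its groups overlapped as well.

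Cdkn1b, the p27 inhibitor that is abundant in quiescent lymphocytes, was bright by probe set 1434045_at. It gave 2483 and 2974 in WT vehicle, against 2560.4 and 3138 in KO vehicle and 2647 and 2212 with ATL1222. The groups overlapped. The log2 difference was -0.17 ± 0.16 with ATL1222 (95% interval -0.50 to 0.17) and 0.060 ± 0.16 in the knockout (-0.28 to 0.40). Its second probe set, 1419497_at, separated the replicate numbers in place of the groups, with 89.1, 67.2 and 59.3 on the replicate 1 arrays and 439, 529 and 439.7 on the replicate 2 arrays of WT vehicle, KO vehicle and WT ATL1222.

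Mdm2, the ubiquitin ligase that restrains p53, gave 628 and 658 in WT vehicle, against 792 and 849 in KO vehicle and 689 and 803 with ATL1222 by probe set 1423605_a_at. Both other groups lay above WT vehicle and overlapped each other. The log2 difference was 0.35 ± 0.17 (SE) in the knockout, with an interval from -0.016 to 0.71 (limma adjusted p = 1.00), and 0.21 ± 0.17 with ATL1222 (-0.15 to 0.57). The probe sets of Mdm2 disagreed in sign. By 1427718_a_at the signals were 187 and 348, 152 and 274, and 174 and 172 in the same order of groups, and the log2 difference was -0.30 ± 0.35 in the knockout and -0.53 ± 0.35 with ATL1222. The third, 1457929_at, lay at 10.9 to 68.6 and was below the limit. With the probe sets averaged Mdm2 lay at -0.16 in the knockout and at -0.20 with ATL1222, with the sign turned in both.

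The 2 Btg genes did not pass in any comparison. Btg1 was among the bright transcripts of these cells, and its probe set 1426083_a_at gave 17329 and 17786 in WT vehicle, against 17368 and 17012.5 in KO vehicle and 17820.5 and 16360.3 with ATL1222. The groups overlapped, and the intervals were the narrowest of the 7 genes. The log2 difference was -0.030 ± 0.12 in the knockout, with an interval from -0.29 to 0.23, and -0.040 ± 0.12 with ATL1222, with an interval from -0.30 to 0.22. A second probe set, 1437455_a_at, gave 17166 and 14282 in WT vehicle, against 15179.6 and 19372 in KO vehicle and 15142 and 14848 with ATL1222. Both vehicle groups overlapped, as did the wild-type groups, while both agonist arrays lay below both KO vehicle arrays. The dimmest, 1442018_at, gave 707 and 559 in WT vehicle, against 899 and 737 in KO vehicle and 891 and 743 with ATL1222, with log2 differences of 0.36 ± 0.19 in both comparisons with WT vehicle (n = 2 arrays a group). By that probe set both other groups lay above WT vehicle and overlapped each other, and neither difference passed when probe sets were tested separately.

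Btg2, the p53-induced member whose promoter window held the full CRE, gave 829 and 1437 in WT vehicle, against 1033 and 1485 in KO vehicle and 1189 and 1438 with ATL1222 by probe set 1416250_at. In each group the replicate 2 array was the higher, and the groups overlapped. The log2 difference was 0.26 ± 0.24 with ATL1222 (95% interval -0.25 to 0.76) and 0.18 ± 0.24 in the knockout (-0.33 to 0.69). The second probe set, 1448272_at, gave 832 and 1008, 1077 and 752, and 862 and 718 in the same order of groups, with log2 differences of -0.22 ± 0.20 with ATL1222 and -0.025 ± 0.20 in the knockout. The sign of Btg2 turned without WT vehicle replicate 1, at -0.13 with ATL1222 and -0.21 in the knockout.

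**Figure D3:**
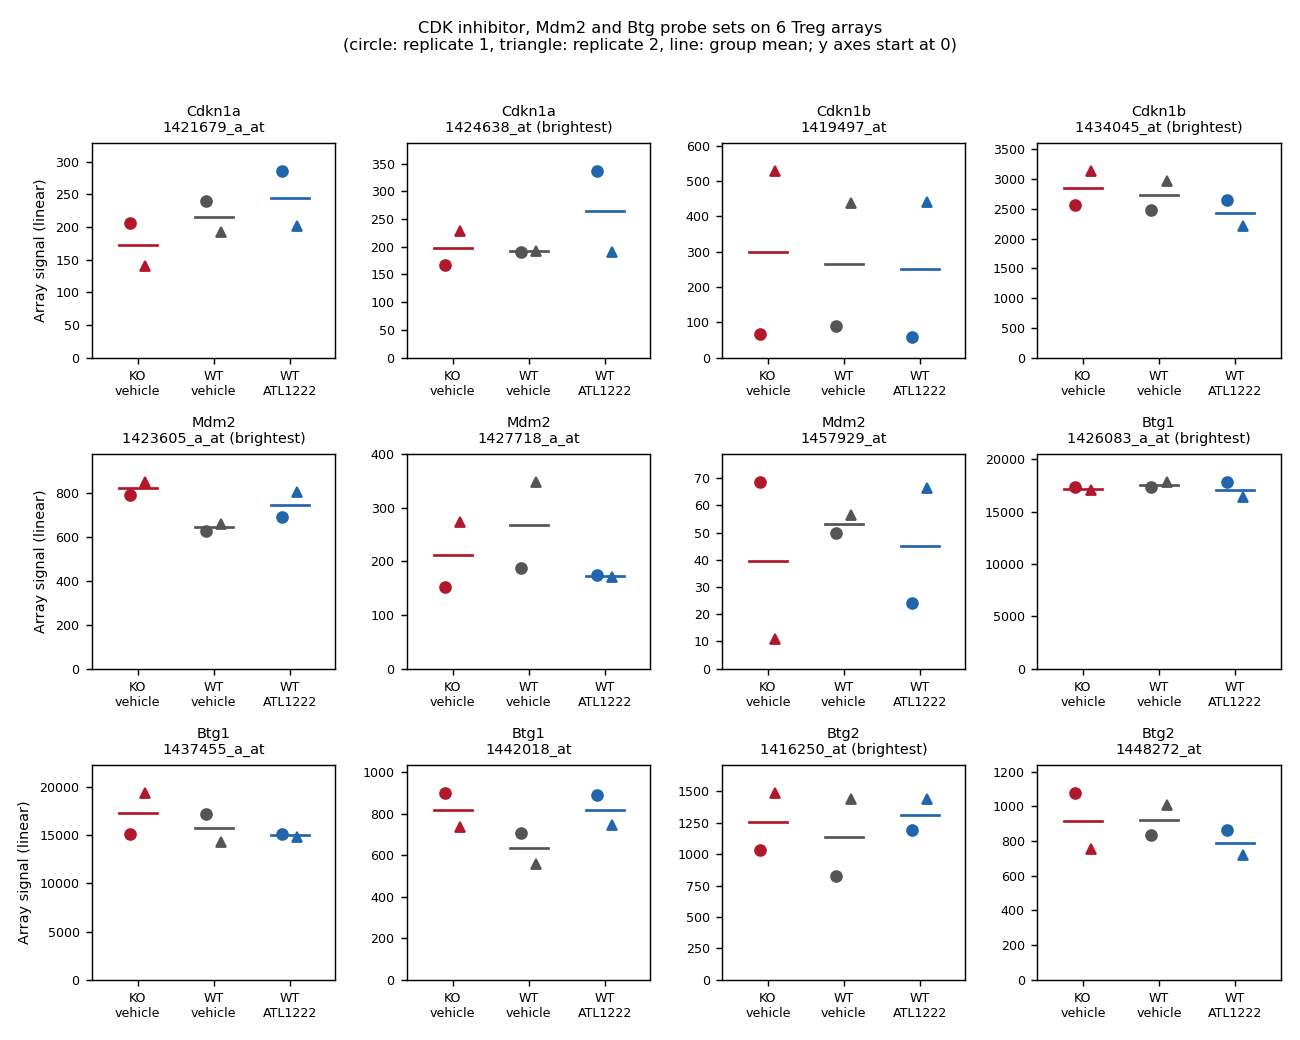
Array signal (linear axes from 0) of the 12 probe sets of Cdkn1a, Cdkn1b, Mdm2, Btg1 and Btg2 by group, with a circle for replicate 1, a triangle for replicate 2 and a line at the group mean. Groups overlap in most panels, and Cdkn1b 1419497_at splits by replicate number, with 59.3 to 89.1 on replicate 1 and 439 to 529 on replicate 2.

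Partners and targets of these genes were followed in 8 lists with 93 genes, of which 75 were tested. By limma 0 of the 75 passed in any of the 3 comparisons at an adjusted p under 0.05, and 3, 3 and 8 had an unadjusted p under 0.05 in the knockout, with ATL1222, and between ATL1222 and KO vehicle. These are 4%, 4% and 10.7% of the 75, against 3.89%, 5.03% and 8.48% of all genes tested, and so near the background. Their median log2 difference was 0.0037 in the knockout and -0.031 with ATL1222. Of 22 other p53 target genes 16 were tested, and with ATL1222 4 had positive and 12 negative log2 differences, with a median of -0.12. Those with the smallest p were Pmaip1 (Noxa, a death-promoting Bcl-family protein) at 0.46 ± 0.19 and the sestrin gene Sesn1 at -0.39 ± 0.17 (limma adjusted p = 0.873 and 0.929). In the knockout 7 were positive and 9 negative, with a median of -0.031. Between ATL1222 and KO vehicle 7 were positive and 9 negative as well, with a median of -0.066. Over all genes tested the median was -0.0079 with ATL1222, 0.0048 in the knockout and -0.022 between ATL1222 and KO vehicle. The share of negative differences over all genes was not counted, and these splits were not tested. Of 13 p53 regulators and relatives, the Mdm2 relative Mdm4 lay at 0.40 ± 0.22 in the knockout and the ubiquitin ligase gene Rchy1 at 0.28 ± 0.15 (limma adjusted p = 1.00 for both).

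The MAP kinase genes listed as downstream of Gadd45 had a median of -0.022 in the knockout and -0.049 with ATL1222, over 8 tested. Map2k3, an activator of p38, had signals of 1189 and 909.7 in WT vehicle, against 1053 and 713 in KO vehicle and 1821 and 1314 with ATL1222. Both agonist arrays were above the other 4, with a log2 difference from WT vehicle of 0.56 ± 0.21 (limma adjusted p = 0.766). Of all genes tested, 14.5% had both agonist arrays above both WT vehicle arrays, and 17.4% had them above both KO vehicle arrays. The share with both patterns was not counted. Map2k4, an activator of JNK, lay at -0.45 ± 0.25 with ATL1222 (limma adjusted p = 0.998).

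Genes of the division machinery that the CDK inhibitors act on did not pass either. Of 9 cyclins, CDKs and PCNA tested, the median was -0.0047 in the knockout and -0.097 with ATL1222. Ccnd2, cyclin D2, lay at -0.39 ± 0.15 in the knockout and Cdk6 at -0.39 ± 0.20 with ATL1222 (limma adjusted p = 1.00 and 0.998). Of 8 genes of p27 synthesis and turnover, Skp2, part of the ligase that degrades p27, lay at 0.91 ± 0.36 in the knockout, and the transcription factor Foxo3 at 0.41 ± 0.19 (limma adjusted p = 1.00 for both). Skp2 signals were dim and uneven, at 71.3 and 158 in WT vehicle against 231 and 203 in KO vehicle. Of 3 other CDK inhibitors tested, Cdkn2c lay at -0.20 ± 0.20 and Cdkn2d at 0.20 ± 0.16 in the knockout. Among 8 genes of the BTG/TOB relatives and CCR4-NOT, Tob1 lay at 0.26 ± 0.15 and Tob2 at -0.30 ± 0.16 in the knockout. Among 10 proliferation markers, the medians were 0.078 in the knockout and 0.0035 with ATL1222, with Mcm6 at 0.27 ± 0.16 with the agonist and Rrm2 at 0.30 ± 0.25 in the knockout.

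**Figure D4:**
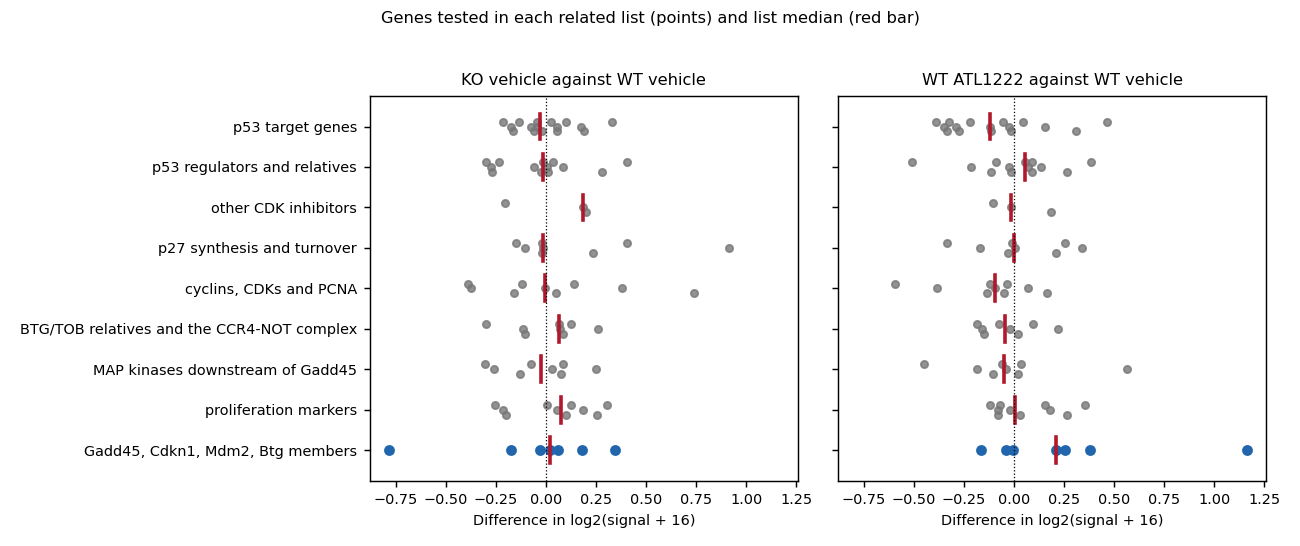
Difference in log2(signal + 16) of the genes tested in 8 related lists (grey points, list medians as red bars) and of the 7 genes described here (blue points), for the 2 comparisons with WT vehicle. The list medians lie between -0.12 and 0.18, and Gadd45a at 1.16 and Gadd45b at -0.78 lie outside the range of every list in their comparison. Both differences were known when the genes and lists were chosen, so nothing is read from this. In the knockout Skp2, at 0.91, has a larger difference in size than Gadd45b.

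The genes whose profile over the 6 arrays was most like that of Gadd45a, among 338 others whose group means spanned at least 1 on the log2 scale, were Cbarp (r = 0.990), the histone variant gene H2az1 (r = 0.989) and Ramp3, a receptor activity-modifying protein gene (r = 0.987). With ATL1222 against WT vehicle their log2 differences were 0.90, 1.09 and 2.52 (limma adjusted p = 0.0665, 0.00824 and 0.000981), so that Cbarp did not pass. For Gadd45b they were Insl6 (r = 0.983), Slc25a14 (r = 0.976) and the ERK phosphatase gene Dusp6 (r = 0.972), among 339 others. In KO vehicle against WT vehicle these lay at -1.03, -1.59 and -0.89, and none of them passed (limma adjusted p of 0.905 or more). With 6 arrays in 3 groups these correlations are descriptions.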

How the data were processed

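Per the labels' protocols, total RNA of the sorted Tregs was biotin-labelled for Affymetrix arrays. The submitters' processing notes name GCOS, with no version; the summarization method was not stated. The authors deposited array signals, that is intensities, on a linear scale, and their scaling was kept.

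Here 64 control probe sets were dropped. Of the rest, 34945 had 1 gene symbol, 932 had several and 9160 were not listed in the platform's annotation. Symbols were updated by Entrez identifier through a RefSeq table of GRCm38.p6, which matched 34741. The probe set of highest mean stood for its gene, on the scale log2(signal + 16), and the dimmest 40% of genes were removed, those under a signal of about 71.2. Folds on this scale understate changes of dim genes. All 6 arrays entered 1 fit by limma 3.58.1 in R 4.3.3, whose moderation followed the mean-variance trend. P-values were adjusted by Benjamini-Hochberg over all genes, at 0.05. The code was tested on simulated data. With 2 arrays a group, the smallest two-sided p of an exact test is 0.333.

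The genes, the 8 related lists and the tests were chosen with earlier results of these data known. Named genes were the 9 described, and from each list any gene called against WT vehicle and the 2 with the smallest unadjusted p in those comparisons. For likeness the 3 genes with the highest Pearson r were taken. Alternatives were the treatment of probe sets, the pseudocount (1 or 64), a floor of 32, the filter, the normalization, the variance trend, the arrays in the fit, the replicate number as a block, and each array left out.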

Additional observations from a re-analysis of the deposited data

How the results depend on the processing

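Of 399 values for the 7 genes under the alternatives, 353 kept their direction and their side of the threshold, 19 kept their direction and lost the call, and 27 turned sign. The 19 are the Gadd45a and Gadd45b values given above. The 27 are all of differences that were not called. With probe sets averaged they were, in the knockout, -0.14 for Cdkn1a, -0.16 for Mdm2 and 0.16 for Btg1, with ATL1222 0.0043 for Gadd45b, -0.20 for Mdm2 and 0.087 for Btg1, and between ATL1222 and KO vehicle -0.057 for Btg2. With cyclic loess they were -0.00083 for Cdkn1a in the knockout and 0.0092 for Btg1 between ATL1222 and KO vehicle, and with quantile normalization 0.012 and 0.058 for Btg1 with ATL1222 and between ATL1222 and KO vehicle. With each array left out, the log2 differences that turned sign ranged over -0.36 to 0.015 for Gadd45a in the knockout, -0.036 to 0.027 for Gadd45b with ATL1222, -0.19 to 0.23 for Cdkn1a in the knockout, -0.0095 to 0.76 for Cdkn1a with ATL1222, -0.032 to 0.74 for Cdkn1a between ATL1222 and KO vehicle, -0.085 to 0.21 for Cdkn1b in the knockout, -0.10 to 0.022 for Btg1 with ATL1222, -0.071 to 0.052 for Btg1 between ATL1222 and KO vehicle, -0.21 to 0.57 for Btg2 in the knockout, -0.13 to 0.65 for Btg2 with ATL1222 and -0.18 to 0.34 for Btg2 between ATL1222 and KO vehicle. The cause was not tested.

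The number of genes called in the knockout was 3, and it was 0 with probe sets averaged, 0 with every probe set separate, 0 without the variance trend and 3 to 7 with each array left out. With ATL1222 against WT vehicle it was 23, and 3 with probe sets averaged, 14 with no filter, 36 with the lowest 60% left out, 35 with cyclic loess, 0 without the variance trend, 44 with 4 arrays fitted and 5 to 39 with each array left out. Between ATL1222 and KO vehicle it was 109, and 44 with probe sets averaged, 70 with no filter, 5 without the variance trend and 42 to 133 with each array left out. Of the 7 genes, 1 was called with ATL1222, and 0 with probe sets averaged, separate probe sets, no filter, quantile normalization or no variance trend, and 0 to 1 with each array left out. Between ATL1222 and KO vehicle 2 were called, 1 with probe sets averaged, separate probe sets or no filter, 0 without the variance trend, and 0 to 2 with each array left out. A group left with 1 array was assumed to vary like the others.

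The replicate numbers are shared by the groups, but the labels do not say what they mark. The poly-A spike controls were brighter on replicate 1 in every group, with mean Lys signals of 10337 to 13225 against 5627 to 6602 on replicate 2. Differences between replicate 1 and 2 correlated across genes between groups with r = 0.230, 0.230 and 0.147. With the replicate number as a block, 9, 79 and 264 genes were called in the knockout, with ATL1222 and between ATL1222 and KO vehicle. With the block and separate probe sets, chosen after seeing the data, the counts were 12, 76 and 258. The block left the calls of the 7 genes as they were, with limma adjusted p = 0.00407 for Gadd45a with ATL1222 and 0.0697 for Gadd45b in the knockout. Dim signals limit Gadd45g, which was left out of the main fit, and 1 Mdm2 probe set, which was not tested.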

Other observations

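The Cdkn1b probe set 1419497_at was 4.93, 7.87 and 7.41 times as bright on replicate 2 as on replicate 1 in WT vehicle, KO vehicle and WT ATL1222. This was seen after its values were known. Of 20967 probe sets above the limit for dim signals, 13 were at least 4 times brighter on replicate 2 in every group, and 0 were at least 4 times brighter on replicate 1 in every group. The 13 included probe sets of Jak1, a kinase of cytokine receptors, Birc6, an inhibitor of apoptosis, and Ubtf, a factor of ribosomal RNA transcription. For Ubtf 1460304_a_at the ratios were 115, 32.1 and 26.4. The brighter Cdkn1b probe set, 1434045_at, did not share this split. The poly-A spike controls differed by replicate number the other way, with mean Lys signals of 10337 to 13225 on replicate 1 and 5627 to 6602 on replicate 2, and their part in the split was not tested.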
